A study of Mus musculus with 8 samples.

Results

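The loci described here are the 100 piRNA precursor loci that the deposited gene table counts in sense orientation. They were chosen by name alone, as the rows that start with the prefix for piRNA loci and end in the suffix for sense, and they make up 100 of the 19276 rows of that table. A second set of 100 rows counts the same loci in antisense. Of the 100 names, 93 are built from a chromosome, a cytogenetic band and a number, such as 10-qB5.1-221.1, and 7 carry the name of a gene, such as pi-Wdfy3.1. The sources used here give no coordinates, lengths or sequences for these loci, so every level below is a number of reads per locus and not per base, and levels of different loci are given only to show where the reads were.

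PIWI-interacting RNAs (piRNAs) are small RNAs of animal germ cells that guide PIWI proteins to transposon and other transcripts. They are cut from long single-stranded precursor transcripts, and in the adult mouse testis most of them come from intergenic loci that are switched on in pachytene spermatocytes by the transcription factor MYBL1. Precursors are processed at the outer membrane of mitochondria and in cytoplasmic granules by a set of nucleases, helicases and Tudor domain proteins, the last of which bind methylated arginines of PIWI proteins. RNF17 is one of these Tudor domain proteins.

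The libraries were made from testes of C57BL/6 mice aged 6 weeks. The 4 groups, of 2 libraries each, were RNA bound in an immunoprecipitation (IP) with an antibody against RNF17 from lysate of homozygous RNF17 testes, the same from heterozygous RNF17 testes, total testis RNA of homozygotes, and total testis RNA of heterozygotes. The labels give the genotypes as homozygous and heterozygous and describe neither the allele nor a wild type, and nothing in them tells whether the pair of libraries in a group stems from different animals. The p-values therefore cover no more than the spread between libraries, part or all of which may be technical. The testis libraries are deposited as the lysate beside the IPs of their genotype, and the same antibody was used on both genotypes. Which testis library, if any, shares its lysate with which IP library was not established here.

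Reads assigned to the gene table numbered between 5661754 and 50575649 per library, and reads in sense loci between 104506 and 1801553. All 100 loci had reads in all 8 libraries, with a lowest count of 3, and all 100 passed the filter on low counts in every comparison. Values per library are given as CPM, that is counts per 1000000 effective reads of the gene table after TMM scaling over the 8 libraries. Over the 100 loci, replicates correlated on the log2(CPM + 1) scale at r = 0.982 in homozygous IP, 0.994 for heterozygous IP, 0.951 for homozygous testis and 0.902 for heterozygous testis, so the testis libraries differed more among themselves than the IP libraries. The RNA of Rnf17 itself stood at 209 and 379.8 CPM in homozygous IP, 1273 and 1173 in heterozygous IP, 50.1 and 105 in homozygous testis and 518 and 532 in heterozygous testis. Homozygotes lay below heterozygotes with no overlap in both kinds of library. The log2 difference in the testis was -2.84 (SE 0.61), which DESeq2 called (adjusted p = 5.30e-04) and edgeR did not (adjusted p = 0.139). The listed markers of pachytene spermatocytes and spermatids had reads in every library, apart from Pou5f2, a pachytene spermatocyte marker with 0 reads in all 8 libraries, and Tssk6, a round spermatid marker with 0 reads in homozygous IP replicate 2 and homozygous testis replicate 1.

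Summed over the 100 loci, sense reads made up a smaller part of the homozygous IP than of any other group but the heterozygous testis. They numbered 18.5 and 21.2 per 1000 reads of the gene table in homozygous IP, against 42.1 and 44.7 in heterozygous IP. In the testis they numbered 28.6 and 35.6 per 1000 in homozygotes, against 21.6 and 14.2 in heterozygotes. The group means were 19.8 ± 1.93 in homozygous IP, 43.4 ± 1.84 in heterozygous IP, 32.1 ± 4.95 in homozygous testis and 17.9 ± 5.20 in heterozygous testis (SD, n = 2 each). The mean of the homozygous IP was thus 0.457 times that of the heterozygous IP, and the mean of the homozygous testis was 1.79 times that of the heterozygous testis. Within a genotype, the IP held 0.617 times the sense share of the testis in homozygotes and 2.42 times in heterozygotes. On this scale no group overlapped the one it is set against. Per 1000 TMM effective reads, the IPs remained apart, at 19.3 and 25.1 in homozygotes and 36.6 and 40.9 in heterozygotes, but the testes overlapped, at 21.0 and 36.2 in homozygotes and 22.5 and 18.5 in heterozygotes. On that scale the homozygous IP and testis overlapped too. With 2 libraries a group, an exact permutation test cannot go below p = 0.333 two-sided, so none is given for these sums.

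**Figure D1:**
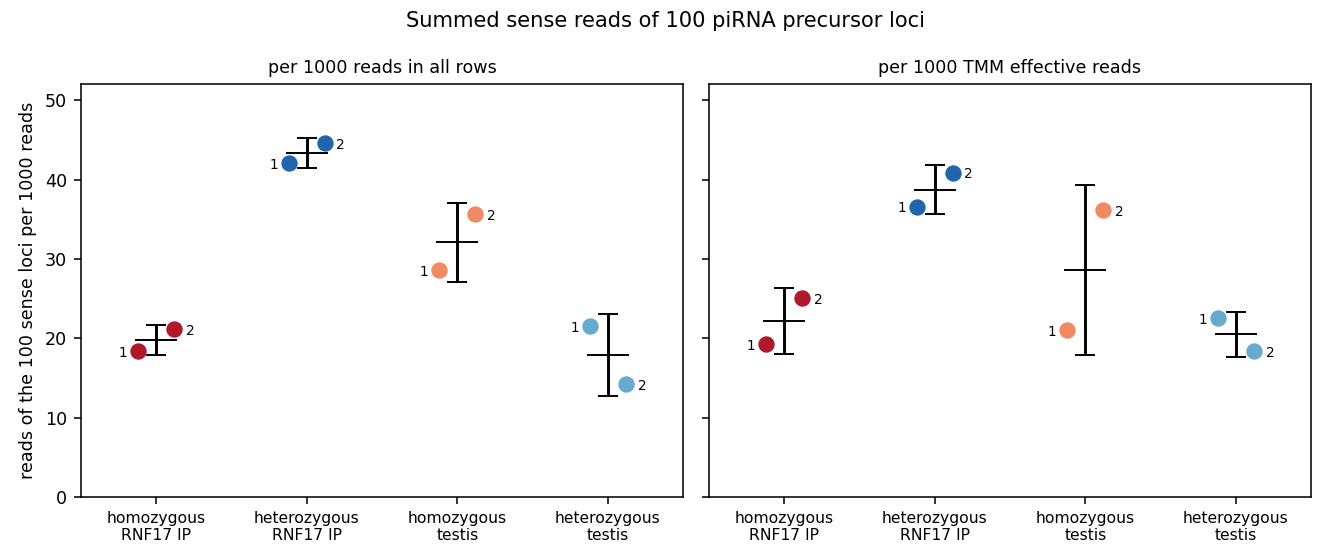
Reads of the 100 sense loci together, per 1000 reads of the gene table (left) and per 1000 TMM effective reads (right), by group. Each point is a library with its replicate number, and the bar and whiskers are the mean and SD of 2 libraries. On the left, homozygous IP lies at 18.5 and 21.2 and heterozygous IP at 42.1 and 44.7, and on the right the testis groups overlap.

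The sense reads were spread over many loci. The 10 loci with the most reads held between 32.9% and 41.3% of the sense reads of a library, and between 14 and 20 loci sufficed to hold 50% of them. Reads in antisense of the same loci were rarer in every library: there were 117 and 138 sense reads per antisense read in homozygous IP, 68.9 and 75.9 in heterozygous IP, 103 and 94.8 in homozygous testis and 61.7 and 54.7 in heterozygous testis. This ratio was higher in homozygotes than in heterozygotes in both kinds of library, with no overlap. Antisense reads averaged 0.156 per 1000 reads of the gene table in homozygous IP and 0.600 in heterozygous IP. In the testis they averaged 0.327 in homozygotes and 0.305 in heterozygotes. Between the IPs, sense and antisense reads were thus both lower in homozygotes.

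Of the loci with the highest mean over the 8 libraries, 6-qF3-8009.1 came first, at 729 and 999 CPM in homozygous IP, 1343 and 1306 in heterozygous IP, 591 and 1556 in homozygous testis and 769 and 1208 in heterozygous testis. It was lower in homozygous than in heterozygous IP with no overlap, and the testis groups overlapped. Next, 14-qA3-3095.1 stood at 1016 and 1515 CPM in homozygous IP, 1506 and 1827 in heterozygous IP, 330.4 and 672 in homozygous testis and 809.8 and 706 in heterozygous testis, with both IPs above the testis of their genotype and IP groups that overlapped. The third, 12-qE-23911.1, stood at 805 and 1029 CPM in homozygous IP, 1105 and 1305 in heterozygous IP, 723 and 1216 in homozygous testis and 1133 and 709 in heterozygous testis, with homozygous IP below heterozygous IP and testis values that overlapped with each other and with the IPs. The fourth, 10-qB4-6488.1, had 246 and 352 CPM in homozygous IP, 2507 and 2510.0 in heterozygous IP, 444 and 772 in homozygous testis and 550.2 and 569 in heterozygous testis. It was the locus with the most reads in both heterozygous IP libraries, and there it lay far above all 6 other libraries. The fifth, 9-qC-31469.1, had 382 and 560.3 CPM in homozygous IP, 1178 and 1431 in heterozygous IP, 979 and 1593 in homozygous testis and 1104 and 518 in heterozygous testis, and 2-qE1-35981.1 had 590.4 and 786 CPM in homozygous IP, 804 and 957 in heterozygous IP, 872 and 1493 in homozygous testis and 556 and 314 in heterozygous testis. Both were below the testis in homozygous IP; 2-qE1-35981.1 was also higher in homozygous than in heterozygous testis with no overlap. The last of the 8 most abundant loci were 14-qA3-19970.1, at 603 and 808 CPM in homozygous IP, 782 and 1051 in heterozygous IP, 582 and 1192 in homozygous testis and 509.8 and 465 in heterozygous testis, and 17-qA3.3-26735.1, at 305 and 617 CPM in homozygous IP, 1173 and 1257 in heterozygous IP, 765 and 978 in homozygous testis and 434 and 427 in heterozygous testis. Both were higher in homozygous testis than in heterozygous testis, and 17-qA3.3-26735.1 was lower in homozygous than in heterozygous IP. At the other end, 8-qA4-155.1, the locus with the lowest mean, had 7.02 and 1.77 CPM in homozygous IP, 8.40 and 10.9 in heterozygous IP, 1.92 and 10.4 in homozygous testis and 2.04 and 10.3 in heterozygous testis. Its 2 homozygous IP libraries lay below the heterozygous ones, but the difference did not pass the threshold (log2 difference -1.20, SE 0.51, edgeR adjusted p = 0.0967).

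**Figure D2:**
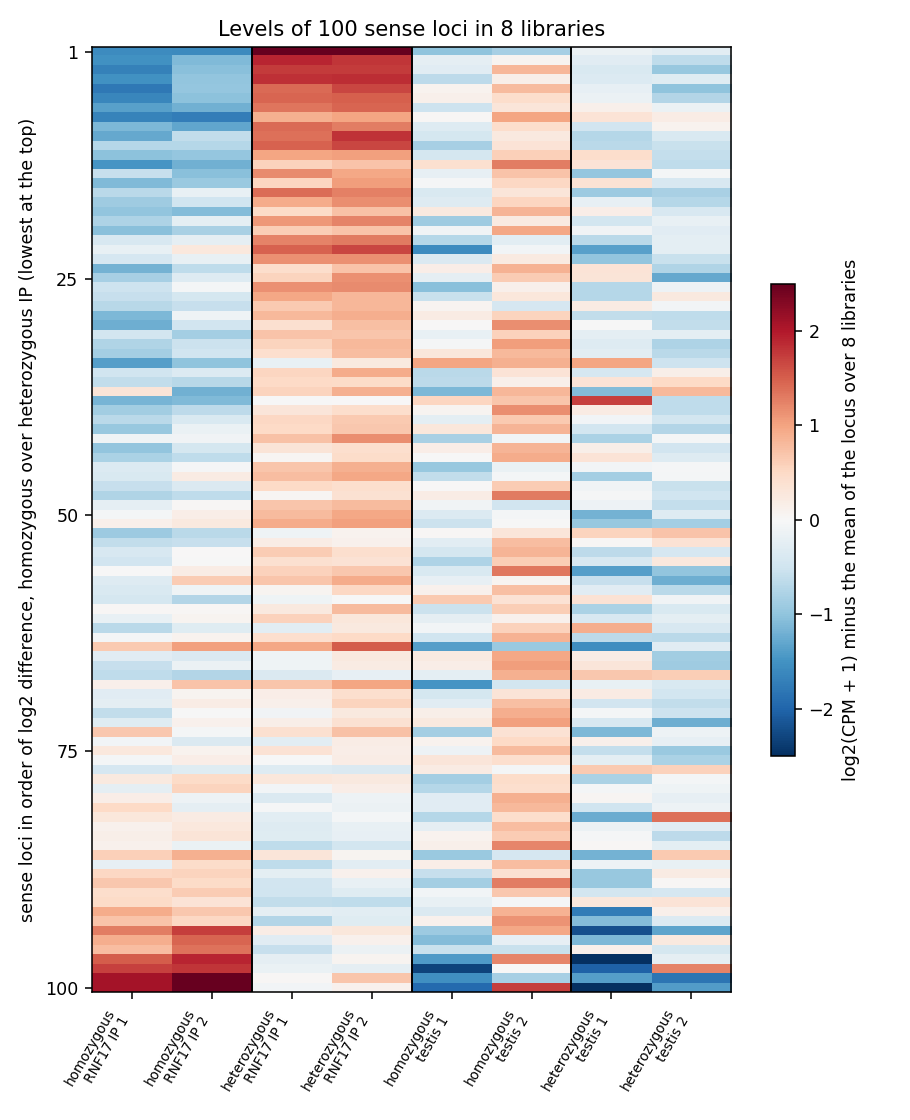
Level of each of the 100 sense loci in the 8 libraries, as log2(CPM + 1) minus the mean of that locus over the 8 libraries; colours are held at the ends of the scale beyond it. Loci run down the page by their log2 difference between homozygous and heterozygous IP, so the loci that are blue in homozygous IP and red in heterozygous IP stand at the top, and the few with the opposite colours at the bottom.

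In the RNF17 IP, most sense loci that differed were lower in homozygotes than in heterozygotes. At a Benjamini-Hochberg adjusted p under 0.05 in edgeR's quasi-likelihood test, 54 of the 100 loci were called lower and 12 higher, and 34 were not called. Among all 13427 rows tested, 17.7% were called lower and 12.4% higher. The median log2 difference of the sense loci was -0.86, against -0.03 over all rows, and 77 of the 100 lay below 0. Of the 54 loci that fell, 13 did so by 4-fold or more, 31 by 2-fold to 4-fold and 10 by less than 2-fold. Of the 12 that rose, 10 did so by 2-fold or more and 2 of these by 4-fold or more. Without any overlap between the libraries, 68 loci were lower and 19 higher in homozygous IP, where 33.8% and 34.4% of all rows were. DESeq2 called the same 54 and 12 loci, and 48 and 10 of them were called whichever of the 4 IP libraries was left out.

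The loci that fell with the smallest adjusted p showed IP levels many times lower in homozygotes. The locus 10-qB5.1-221.1 had 30.3 and 29.7 CPM in homozygous IP, against 593 and 615 in heterozygous IP. Its testis levels were 45.1 and 50.9 CPM in homozygotes, against 83.2 and 76.0 in heterozygotes. Its log2 difference between the IPs, -4.38 (SE 0.22), was the widest of the 100 loci, with an edgeR adjusted p of 4.48e-07. Heterozygous IP thus stood alone, above the 6 other libraries, and the testis libraries of this locus were also lower in homozygotes, with no overlap. Heterozygous IP was likewise far above the other libraries for 11-qE1-9443.1, at 127 and 169.9 CPM in homozygous IP, against 1373 and 1268 in heterozygous IP (log2 difference -3.20, SE 0.23, edgeR adjusted p = 2.54e-06). In its testis libraries the level was 314 and 385 in homozygotes and 302 and 235 in heterozygotes, so testis and IP differed in opposite directions between the genotypes, although the testis difference missed the threshold (edgeR adjusted p = 0.888). The other 3 were 8-qC5-2209.1, 2-qG3-1029.1 and 6-qC3-6258.1. The values of 8-qC5-2209.1 were 47.1 and 52.4 CPM in homozygous IP, 309 and 333 in heterozygous IP, 85.1 and 150.3 in homozygous testis and 133 and 109 in heterozygous testis, a log2 difference between the IPs of -2.73 (SE 0.20). Those of 2-qG3-1029.1 were 27.0 and 26.0 CPM in homozygous IP, 164 and 175 in heterozygous IP, 90.1 and 175 in homozygous testis and 112 and 100.2 in heterozygous testis, a log2 difference of -2.73 (SE 0.21). The levels of 6-qC3-6258.1 were 62.6 and 55.3 CPM in homozygous IP, 372 and 338 in heterozygous IP, 109 and 187 in homozygous testis and 99.0 and 146 in heterozygous testis, a log2 difference of -2.63 (SE 0.20). In all 3 the homozygous IP lay below every other library, and the testis groups overlapped.

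For the 5 loci that rose in homozygous IP with the smallest adjusted p, homozygous IP lay above all 6 other libraries. The locus 17-qC-935.1 had 442 and 466 CPM in homozygous IP, 119.5 and 116 in heterozygous IP, 26.1 and 134 in homozygous testis and 32.1 and 318 in heterozygous testis. The log2 difference between its IPs was 1.90 (SE 0.19), with an edgeR adjusted p of 2.82e-05, while its testis libraries spread widely, replicate 2 above replicate 1 in both genotypes. The same spread between replicates was seen for 4-qD3-2082.1, at 677 and 884 CPM in homozygous IP, 203 and 249 in heterozygous IP, 88.1 and 556 in homozygous testis and 32.0 and 202 in heterozygous testis (log2 difference between the IPs 1.74, SE 0.22). The locus 1-qD-2017.1 had 51.9 and 71.8 CPM in homozygous IP, 11.0 and 12.3 in heterozygous IP, 2.23 and 40.0 in homozygous testis and 0.510 and 3.73 in heterozygous testis, and a log2 difference between the IPs of 2.37 (SE 0.26). Its level in heterozygous testis rests on few reads, 3 in replicate 1 and 57 in replicate 2. The homozygous IP libraries of 14-qA3-2286.1, at 1155 and 1841 CPM, against 276 and 441 in heterozygous IP, made it the locus with the most reads in both homozygous IP libraries. Its testis levels, 92.8 and 152 CPM in homozygotes and 104 and 75.2 in heterozygotes, overlapped, and the log2 difference between the IPs was 2.01 (SE 0.29). Finally, 4-qB3-3994.1 had 202 and 278 CPM in homozygous IP, 94.1 and 101 in heterozygous IP, 43.8 and 163 in homozygous testis and 17.3 and 32.8 in heterozygous testis, a log2 difference between the IPs of 1.25 (SE 0.21), with homozygotes above heterozygotes in the testis libraries as well.

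**Figure D3:**
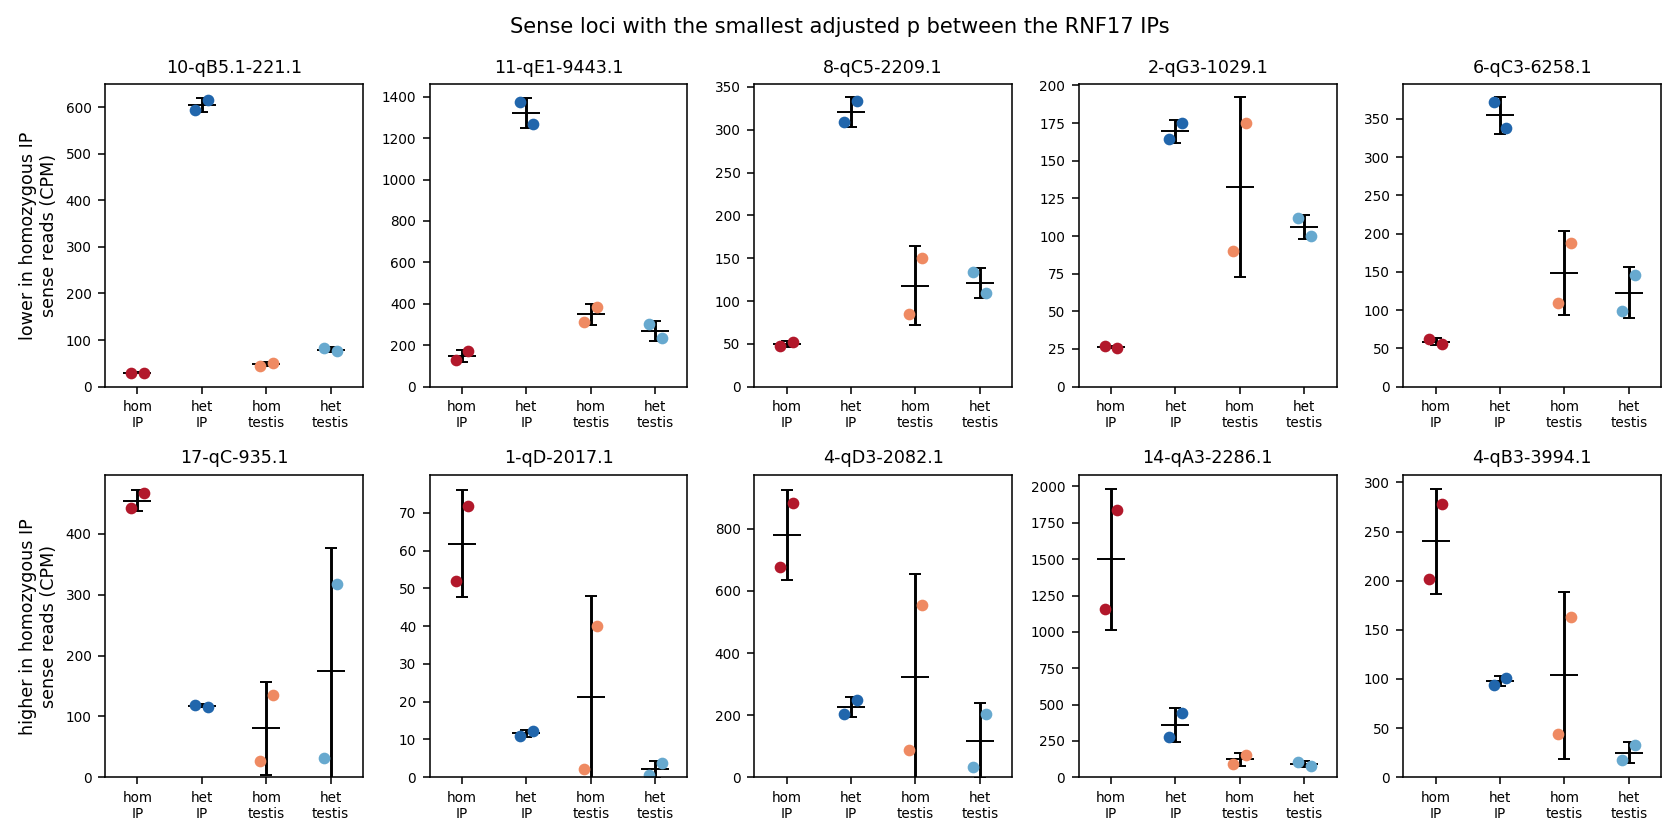
CPM in each library of the 5 sense loci called lower (top) and the 5 called higher (bottom) in homozygous than in heterozygous IP with the smallest adjusted p, each with its own axis from 0. Points are libraries, and the bar and whiskers are the mean and SD of 2 libraries, with whiskers stopped at 0. Heterozygous IP is the high group in the top row and homozygous IP in the bottom row.

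The number of calls between the IPs depended on the libraries fitted together. With all 8 libraries in the fit, which then share an estimate of spread with the testis libraries, 14 loci were called lower and 1 higher, against 3.12% and 0.31% of all rows in that fit. Scaled by library totals alone, 70 loci were called lower and 11 higher, against 23.4% and 6.2% of all rows, while the share of calls over all rows that were higher was 20.9%, against 41.3% with TMM scaling.

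The RNA recovered with the RNF17 antibody was then set against the testis RNA of the same genotype. In homozygotes most sense loci lay below the testis: 32 of 100 had a log2 ratio of IP to testis above 0, against 49.3% of all rows, and the median was -0.39, against -0.01 over all rows. Without homozygous testis replicate 2 the median was -0.06, and without replicate 1 it was -0.70. Without overlap, 13 loci were higher and 48 lower in homozygous IP than in homozygous testis, where 24.8% and 31.6% of all rows were. EdgeR called 4 loci higher and 4 lower, against 1.84% and 1.45% of the 13334 rows tested, and DESeq2 called 7 higher and 17 lower, against 5.45% and 5.14% of all rows. Scaled by library totals alone, edgeR called 5 loci higher and 32 lower, against 1.73% and 6.7% of all rows, and the share of calls over all rows that were higher was 20.6%, against 55.9% with TMM scaling. All calls of loci that were lower ended when either homozygous IP library was left out, while 45 were called lower without homozygous testis replicate 1, against 8.84% of all rows in that fit, and 25 without replicate 2, against 16% of all rows.

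Of the 4 loci above the testis in homozygous IP, 14-qA3-2286.1 had the highest ratio of the 100, 3.71 (SE 0.53) on the log2 scale (edgeR adjusted p = 0.0087), and was called whichever of the 4 libraries was left out. The ratio of 17-qC-935.1 was 2.62 (SE 0.62), with an edgeR adjusted p of 0.043, and its call ended without homozygous IP replicate 2 (adjusted p = 0.0639). The locus 7-qD1-654.1 had 487 and 627 CPM in homozygous IP, 599.7 and 878 in heterozygous IP, 118 and 161 in homozygous testis and 105 and 252 in heterozygous testis, and so lay above the testis in the IP of both genotypes. Its log2 ratios were 2.09 (SE 0.42) in homozygotes and 2.08 (SE 0.52) in heterozygotes, with edgeR adjusted p of 0.0281 and 0.214. The fourth, 8-qA2-343.1, had 76.7 and 112 CPM in homozygous IP, 32.9 and 43.3 in heterozygous IP, 18.4 and 34.7 in homozygous testis and 17.9 and 47.8 in heterozygous testis; homozygous IP was above homozygous testis, whereas heterozygous IP and testis overlapped. The calls of 7-qD1-654.1 and 8-qA2-343.1 ended without either homozygous IP library.

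Of the 4 loci below the testis in homozygous IP, 2-qG3-1029.1 had the lowest ratio, -2.22 on the log2 scale (SE 0.41, edgeR adjusted p = 0.0192), and 7-qD2-24830.1 the next, -2.13 (SE 0.45, edgeR adjusted p = 0.0314). The values of 7-qD2-24830.1 were 137 and 165 CPM in homozygous IP, 571 and 627 in heterozygous IP, 501 and 922 in homozygous testis and 481 and 244 in heterozygous testis, with homozygous IP below the 6 other libraries and homozygous testis above heterozygous testis. The ratio of 13-qA5-464.1 was -2.05 (SE 0.39), from values of 56.7 and 74.2 CPM in homozygous IP, 131 and 177 in heterozygous IP, 297 and 278 in homozygous testis and 296 and 105 in heterozygous testis. The fourth, 3-qA2-617.1, had 106 and 109.9 CPM in homozygous IP, 236 and 239 in heterozygous IP, 344 and 384 in homozygous testis and 779 and 152 in heterozygous testis, a ratio in homozygotes of -1.67 (SE 0.38). All 4 were also called lower in homozygous than in heterozygous IP.

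In heterozygotes, most sense loci lay above the testis: 84 of 100 had a log2 ratio of IP to testis above 0, against 48.0% of all rows, and the median was 0.86, against -0.04 over all rows. Without overlap, 66 loci were higher and 6 lower in heterozygous IP than in heterozygous testis, where 28.7% and 24.5% of all rows were. No locus passed the adjusted threshold in edgeR, which called 0.0% of the 13562 rows tested. At an unadjusted p under 0.05 edgeR gave 42 loci as higher and 3 as lower, against 10.2% and 7.98% of all rows, and DESeq2 called 16 higher and 0 lower at an adjusted p under 0.05, against 1.92% and 2.76% of all rows. The outcome in edgeR depended on the testis libraries, since without heterozygous testis replicate 1 it called 66 loci higher and 6 lower, against 19.3% and 21.4% of all rows in that fit, and without replicate 2 it called 63 higher and 8 lower, against 26.9% and 25.5% of all rows.

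The highest ratios in heterozygotes belonged to 10-qB5.1-221.1, with a log2 ratio of 2.94 (SE 0.34), and 17-qE1.1-7037.1, with 2.40 (SE 0.38). The levels of 17-qE1.1-7037.1 were 69.3 and 109 CPM in homozygous IP, 762 and 764 in heterozygous IP, 186 and 404 in homozygous testis and 174 and 117 in heterozygous testis, so this locus had its high values in heterozygous IP alone. Of the loci with the smallest unadjusted p, 10-qB4-6488.1 had a log2 ratio of 2.18 (SE 0.31) and an edgeR adjusted p of 0.206. Also among them, 10-qC1-12816.1 had 321 and 446 CPM in homozygous IP, 1352 and 1218 in heterozygous IP, 392 and 633 in homozygous testis and 270.3 and 290.5 in heterozygous testis, which is a log2 ratio in heterozygotes of 2.21 (SE 0.32). Heterozygous IP lay above heterozygous testis in both, while homozygous IP overlapped homozygous testis in 10-qC1-12816.1 and lay below it in 10-qB4-6488.1. The lowest ratios in heterozygotes were those of 3-qA2-617.1, at -0.98, and 13-qB1-1517.1, at -0.94. For 3-qA2-617.1, heterozygous testis replicate 1 was far above replicate 2, and without it the ratio turned to 0.62, with heterozygous IP above the remaining testis library. The values of 13-qB1-1517.1 were 273 and 297 CPM in homozygous IP, 290.3 and 282 in heterozygous IP, 422 and 353 in homozygous testis and 572 and 542 in heterozygous testis, with the IP below the testis in both genotypes and no overlap.

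Put side by side, the IP to testis ratios of the genotypes showed no common order across loci. The log2 ratios in homozygotes and heterozygotes, which come from separate fits of different libraries of the same gene table, correlated at r = 0.0522 over the 100 loci, as a description. Both ratios were above 0 for 28 loci, against 31.6% of the rows tested in both genotypes, and both below 0 for 12, against 35.0%. The ratio was below 0 in homozygotes and above 0 in heterozygotes for 56 loci, against 15.8% of the 12895 rows tested in both, and the opposite held for 4 loci, against 17.6%. Asking further that no libraries overlap left 34 loci with the IP below the testis in homozygotes and above it in heterozygotes, against 3.59% of all rows, and 1 with the reverse, against 2.86%. Of the 56 loci, 41 were called lower in homozygous than in heterozygous IP and 0 higher. Of the 28 with both ratios above 0, 9 were called lower and 9 higher. Between the IPs, 17.7% of all rows were called lower and 12.4% higher. The same IP libraries enter the ratios and these calls, so the calls follow in part from the way the loci were grouped.

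**Figure D4:**
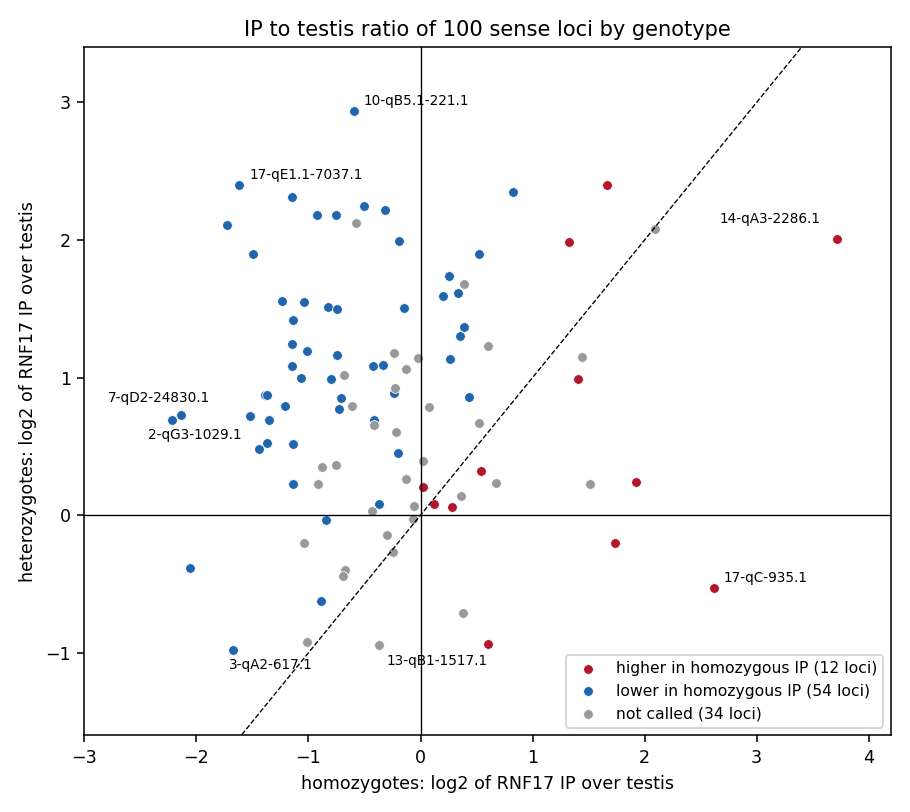
Log2 ratio of RNF17 IP to testis of each of the 100 sense loci in homozygotes (horizontal) and heterozygotes (vertical), coloured by the call between homozygous and heterozygous IP; the dashed line marks equal ratios. The upper left field holds 56 loci, and 14-qA3-2286.1 lies farthest to the right.

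The difference between the genotypes in the ratio of IP to testis was tested as an interaction over all 8 libraries, as the log2 ratio in homozygotes minus that in heterozygotes. The median over the 100 loci was -1.16, against -0.02 over all rows, and was -0.77 without homozygous testis replicate 2. Of the loci, 17 lay above 0 and 83 below it, against 49.1% of all rows above 0. EdgeR called 0 loci and 0.0% of the 14180 rows tested at an adjusted p under 0.05; at an unadjusted p under 0.05 it gave 42 loci as lower and 5 as higher, against 3.6% and 6.08% of all rows. DESeq2 called 23 loci lower and 1 higher of the 88 to which it gave an adjusted p, against 0.57% and 4.42% of the 4914 rows with one. The smallest unadjusted p in edgeR were those of 10-qB5.1-221.1, with a difference of -3.51 (SE 0.44), of 11-qE1-9443.1, with -3.43 (SE 0.49), and of 18-qE1-1295.1, with -3.38 (SE 0.53), each at an edgeR adjusted p of 0.214. The values of 18-qE1-1295.1 were 106 and 162 CPM in homozygous IP, 899.7 and 929 in heterozygous IP, 358 and 446 in homozygous testis and 296 and 198 in heterozygous testis, so the locus was lowest in homozygous IP and highest in heterozygous IP, with testis levels between.

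In the testis itself, no sense locus passed the adjusted threshold between the genotypes in edgeR or DESeq2 with all 4 libraries and no replicate block. The calls with that block are given in the closing section. EdgeR called 0 loci and 0.0% of the 14332 rows tested, and DESeq2 called 0 loci as well, against 0.136% of all rows higher and 4.44% lower. At an unadjusted p under 0.05 edgeR gave 2 loci as higher in homozygotes and 0 as lower, against 1.98% and 8.16% of all rows. The log2 difference was above 0 for 73 of the 100 loci, against 51.9% of all rows, with a median of 0.43, against 0.04 over all rows. This median rested on homozygous testis replicate 2: it was 0.046 without that library, against -0.02 over all rows in that fit, and 0.84 without replicate 1. Without overlap, 35 loci were higher and 8 lower in homozygous testis, where 22.3% and 18.4% of all rows were. In whole testis, fewer cells of a type and less RNA per cell cannot be told apart. For this comparison the authors' deposited table lists 734 rows, of which 0 are sense loci and 4 are antisense loci, 2 of these at an adjusted p under 0.05.

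The loci with the smallest unadjusted p in the testis were all higher in homozygotes. The first, 4-qB3-277.1, was a locus of few reads, at 7.21 and 8.39 CPM in homozygous IP, 11.4 and 12.2 in heterozygous IP, 5.36 and 19.6 in homozygous testis and 2.21 and 3.20 in heterozygous testis, with a log2 difference in the testis of 2.09 (SE 0.79) and an edgeR adjusted p of 0.42. The next were 4-qB3-3994.1, with 1.94 (SE 0.76, edgeR adjusted p = 0.445), and 1-qD-2017.1, with 3.11 (SE 1.39, edgeR adjusted p = 0.523). Testis groups did not overlap for 4-qB3-277.1 and 4-qB3-3994.1, and they overlapped for 1-qD-2017.1. Without homozygous testis replicate 2 the log2 differences were 0.98 for 4-qB3-277.1, 0.81 for 4-qB3-3994.1 and 0.03 for 1-qD-2017.1. The difference of 1-qD-2017.1 passed the threshold without homozygous testis replicate 1 (4.14, edgeR adjusted p = 0.027) and without heterozygous testis replicate 2 (5.31, edgeR adjusted p = 0.00437), which leaves the library with 3 reads as the lone heterozygous one. The spread between testis libraries varied widely from locus to locus. Among loci with at least 10 reads in each testis library it was widest for 17-qC-935.1, where heterozygous testis replicate 2 was 9.89 times replicate 1, and least for pi-Wdfy3.1, where that ratio was 1.00. The values of pi-Wdfy3.1 were 41.0 and 31.1 CPM in homozygous IP, 93.8 and 92.5 in heterozygous IP, 49.5 and 84.5 in homozygous testis and 47.5 and 47.6 in heterozygous testis, with homozygous testis above heterozygous testis and homozygous IP below heterozygous IP.

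**Figure D5:**
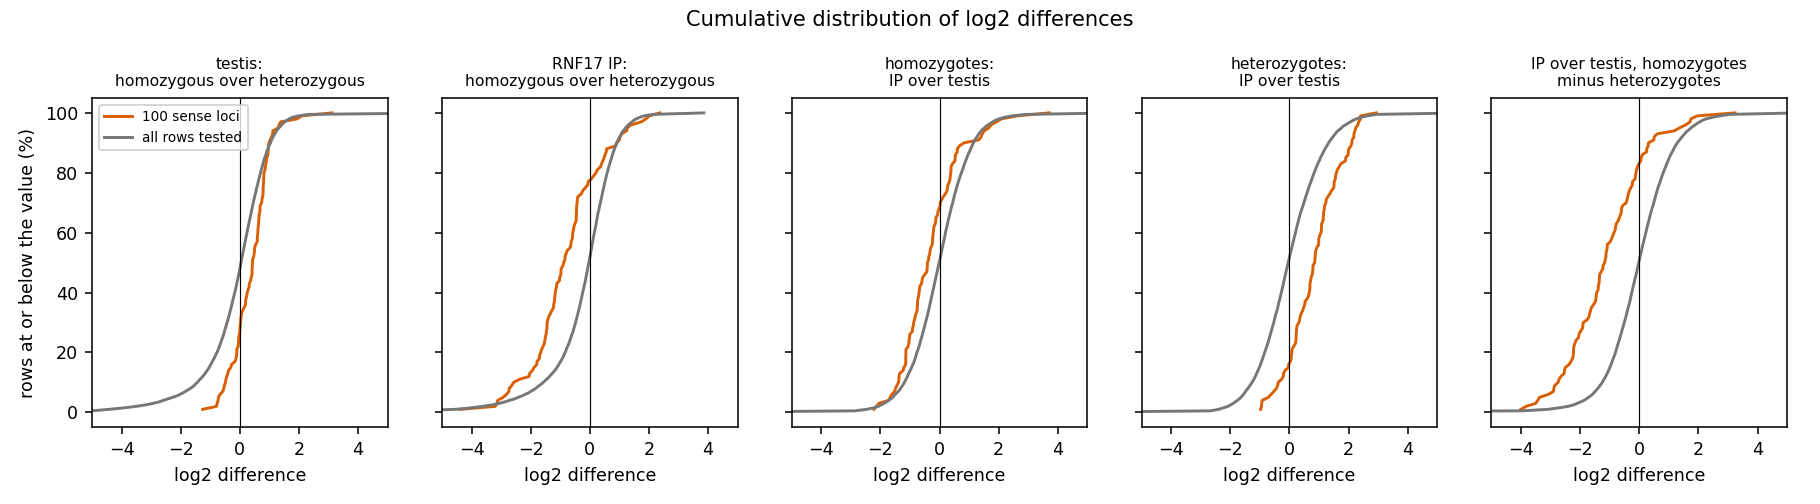
Cumulative share of rows, in percent, at or below each log2 difference for the 100 sense loci and for all rows tested, in the 5 comparisons. The curve of the sense loci lies left of that of all rows between the IPs (medians -0.86 and -0.03) and in the interaction (-1.16 and -0.02), and right of it for IP over testis in heterozygotes (0.86 and -0.04).

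The differences between the genotypes in testis and in IP did not follow each other across loci: over the 100 loci their correlation was r = 0.126, as a description of values from separate fits of different libraries. Of the 54 loci that fell in homozygous IP, 40 had a log2 difference above 0 in the testis, as did 8 of the 12 that rose.

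The differences between the IPs were also read by position. The 93 loci named by position lie in 51 bands on 18 chromosomes, and 28 bands hold 2 or more of them, 70 loci in all. Of these 28 bands, 15 held 2 or more loci called lower and none called higher, where 54 of the 100 loci were called lower. Whether the loci called lower gather in bands beyond that share was not tested. All 5 loci of 10-qC1 fell in homozygous IP, with log2 differences between -2.93 and -1.45, while their testis differences lay between -0.28 and 0.98. All 3 loci of 11-qE1 fell too, by log2 differences between -3.20 and -0.88, and so did all 3 of 5-qF, between -1.66 and -1.12. In 13-qA5 and 7-qD1, 3 of 4 loci fell. The band 14-qA3 differed from these, with 2 of its 4 loci called higher, 0 called lower and log2 differences between -0.44 and 2.01. One band, 8-qC5, held calls in both directions: 8-qC5-8200.1 rose, with a log2 difference of 1.08 (SE 0.22), and 8-qC5-2209.1 fell, with -2.73 (SE 0.20). The sources used here do not give the distance between loci of a band or whether they share reads, so they are not counted as independent of each other. These bands were picked out after their values were seen.

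Of the 7 loci named after genes, pi-Cdc42ep3.1 and pi-Wdfy3.1 fell in homozygous IP and pi-Gm5878.1 rose. The log2 differences were -1.94 (SE 0.22) for pi-Cdc42ep3.1 (edgeR adjusted p = 7.68e-05), -1.42 (SE 0.22) for pi-Wdfy3.1 (edgeR adjusted p = 6.11e-04) and 0.91 (SE 0.20) for pi-Gm5878.1 (edgeR adjusted p = 0.00559). The other 4, pi-1700016M24Rik.1, pi-1700006A11Rik.1, pi-Arhgap20.1 and pi-Tmem194.1, had log2 differences between -0.55 and 0.49 and were not called. The gene table also has rows for 5 of the genes themselves, and reads of a locus and of the gene it is named after cannot be told apart where they overlap. The row of Cdc42ep3 fell with its locus, at a log2 difference of -3.13 (edgeR adjusted p = 6.29e-05) and levels of 7.39 and 3.07 CPM in homozygous IP, against 46.3 and 41.6 in heterozygous IP. The row of Wdfy3 had a log2 difference of -0.46 (edgeR adjusted p = 0.102) and that of Tmem194 -0.64 (edgeR adjusted p = 0.0986). The rows of 1700006A11Rik and 1700016M24Rik held between 0 and 14 reads per library.

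The RNAs of proteins that make and use these precursors were read in the same fits. Of 32 genes of the piRNA pathway, 28 are in the table. Between the IPs, 4 of the 27 tested were called lower in homozygotes and 0 higher, beside 17.7% and 12.4% of all rows, with a median log2 difference of -0.05, against -0.03 over all rows. Besides Rnf17, at -2.10 (SE 0.27, edgeR adjusted p = 1.85e-04), these were Gtsf1, at -2.41 (SE 0.33, edgeR adjusted p = 2.76e-04), Piwil1, at -1.13 (SE 0.21, edgeR adjusted p = 0.00174), and Pld6. Gtsf1 encodes a zinc finger protein that works with PIWI proteins, Piwil1 the PIWI protein MIWI of spermatocytes and spermatids, and Pld6 a nuclease of the mitochondrial surface that cuts precursors. Gtsf1 RNA was at 13.7 and 7.74 CPM in homozygous IP, 68.6 and 40.6 in heterozygous IP, 21.8 and 24.3 in homozygous testis and 45.2 and 60.8 in heterozygous testis, and that of Piwil1 at 212 and 165 CPM in homozygous IP, 389 and 412 in heterozygous IP, 148 and 595 in homozygous testis and 142 and 247 in heterozygous testis. Pld6 was not called by DESeq2 (adjusted p = 0.112). Against the testis, 1 of 28 was higher in homozygous IP, which was Rnf17 at 2.03 (SE 0.47, edgeR adjusted p = 0.0396). EdgeR called 0 in heterozygotes, in the testis and in the interaction, and DESeq2 called 1, Rnf17, lower in homozygous testis. Rnf17 RNA had a log2 ratio of IP to testis of 1.24 (SE 0.30) in heterozygotes and an interaction of 0.82 (SE 0.62). Mybl1, which encodes the transcription factor of the pachytene loci, stood at 132 and 127 CPM in homozygous IP, 127 and 123 in heterozygous IP, 84.5 and 313 in homozygous testis and 204 and 208 in heterozygous testis. Its log2 difference was 0.01 (SE 0.19) between the IPs and -0.14 (SE 0.68) between the testes, with edgeR adjusted p of 0.975 and 0.972. Its log2 ratio of IP to testis was -0.49 (SE 0.51) in homozygotes and -0.70 (SE 0.32) in heterozygotes, with an interaction of 0.24 (SE 0.72). Ddx4, a germ cell RNA helicase with the highest mean of the list, stood at 1185 and 1235 CPM in homozygous IP, 1203 and 1024 in heterozygous IP, 564 and 1556 in homozygous testis and 1199 and 1397 in heterozygous testis, and was not called in any comparison.

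Sums of spermatid markers differed with the genotype in the same libraries. Between the IPs, 17.7% of all rows were called lower and 12.4% higher. In the testis edgeR called 0 of the spermatid and pachytene spermatocyte markers and 0.0% of all rows. DESeq2 called 13 elongating spermatid, 5 round spermatid and 2 pachytene spermatocyte markers lower there, against 4.44% of all rows. Summed over the 15 elongating spermatid markers, all of which were called lower in homozygous IP, levels were 1510 and 1723 CPM in homozygous IP, 9353 and 8783 in heterozygous IP, 2209 and 3398 in homozygous testis and 8937 and 34987 in heterozygous testis. Of the 15 round spermatid markers, 10 were called lower and 1 higher in homozygous IP, and their sums were 1457 and 1419 CPM in homozygous IP, 2634 and 2388 in heterozygous IP, 589 and 1065 in homozygous testis and 1621 and 5002 in heterozygous testis. Pachytene spermatocytes are the cells known to transcribe most of these precursors. Of their 15 markers, 14 were tested between the IPs, with 3 called lower and 4 higher and a median log2 difference of 0.05. The sums of the pachytene markers were 9790 and 11960 CPM in homozygous IP, 6852 and 7177 in heterozygous IP, 5475 and 12547 in homozygous testis and 8650 and 13752 in heterozygous testis. Per CPM of pachytene markers, the sense loci had 1.97 and 2.10 CPM in homozygous IP, 5.35 and 5.70 in heterozygous IP, 3.84 and 2.89 in homozygous testis and 2.61 and 1.34 in heterozygous testis. Relative to these markers, the sense loci were thus lower in homozygous than in heterozygous IP and higher in homozygous than in heterozygous testis, with no overlap in either. In the testis this holds for the ratio alone, since the CPM sums of the loci and of the markers each overlapped between the genotypes. Of the 14 markers tested there, 2 had a log2 difference above 0, and the median was -0.38, against 0.04 over all rows. Between the IPs the single markers went both ways, with log2 differences between -3.77 and 2.34, and their sums were higher in homozygotes with no overlap. The ratio thus rests on the markers as well as on the loci. Sums of somatic cell markers differed between the testes as well, although edgeR called 0 of these markers there. DESeq2 called 1 Sertoli cell marker higher, and 1 macrophage and 1 peritubular myoid marker lower, in homozygous testis. The 10 Leydig cell markers summed to 775 and 952 CPM in homozygous testis, against 338 and 386 in heterozygous testis, with Insl3, a defining Leydig cell gene, at 0 reads in all 8 libraries. The 14 Sertoli cell markers in the table summed to 1139 and 1618 CPM in homozygous testis, against 544 and 821 in heterozygous testis. The 7 macrophage markers in the table summed to 202 and 179 CPM in homozygous testis, against 650 and 1924 in heterozygous testis. Yet 4 of the 6 macrophage markers tested in the testis had a log2 difference above 0, with a median of 0.85 and a lowest of -4.42. The 6 peritubular myoid markers summed to 241 and 145 CPM in homozygous testis, against 276 and 442 in heterozygous testis. Of these 6, 5 had a log2 difference above 0. The part of cell composition in the differences of the sense loci was not tested.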

How the data were processed

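RNA of 8 libraries, from RNF17 immunoprecipitates (IP) and testes of homozygotes and heterozygotes, was counted per row by the authors. The deposited gene tables hold raw whole-number counts of reads per row, with no normalization. The submitters' processing notes name the build mm9 and the tools STAR and DESeq. Their versions and roles, the counting rule and the handling of strand and of multiply mapped reads are not stated there or elsewhere in what was used. The 4 testis columns repeated in the IP tables were identical to those of the testis table and were used once, and 0 columns were left unmapped. Reads of repeated sequence shared between loci, and of genes that overlap a locus, can be split or counted in either.

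The authors' deposited table of differing genes was read for its adjusted p-value only. Groups came from the sample titles. In R 4.3.3, edgeR 4.0.16 (with limma 3.58.1) fitted all rows that passed filterByExpr, with TMM scaling and its quasi-likelihood test, each pair of groups on its own 4 libraries and the interaction on all 8, with Benjamini-Hochberg adjustment over all rows tested and a threshold of 0.05. Standard errors were computed from the log2 fold change and its F value. Fitted values can differ slightly from ratios of the CPM, which share 1 TMM scaling. The script was tested on simulated data. Alternatives were DESeq2 1.42.0, RLE scaling, library totals alone, other filters, a replicate block, a fit on all 8 libraries and leaving out each library.

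Loci with values in every library are the 8 with the highest mean CPM and the 1 with the lowest; per comparison the 5 called in each direction with the smallest adjusted p, or the 3 with the smallest unadjusted p where none was called; the 2 highest and 2 lowest ratios of IP to testis per genotype; and the widest and narrowest testis replicates with at least 10 reads in each testis library. Of the pathway list, Rnf17, Mybl1 and up to 3 called members per comparison are named, or failing these the most abundant member. The members, lists and rules were chosen with earlier results of these data known. Replicate numbers were not taken as pairs, since only 2 exist per group. The transposon tables were not used here.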

Additional observations from a re-analysis of the deposited data

Results flagged for a closer look

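The IP to testis ratio of sense loci differed between homozygotes and heterozygotes in the DESeq2 interaction, though not in edgeR, which called 0. Of the 88 loci to which it gave an adjusted p, DESeq2 called the ratio lower in homozygotes for 23 and higher for 1, 14-qA3-284.1. Of the 4914 rows with an adjusted p, 0.57% were called lower and 4.42% higher. Of the loci named above, the DESeq2 difference of log2 ratios, homozygotes minus heterozygotes, was -3.97 for 17-qE1.1-7037.1, -3.49 for 10-qB5.1-221.1, -3.41 for 11-qE1-9443.1 and -3.35 for 18-qE1-1295.1. It was -3.04 for 10-qB4-6488.1, -2.86 for 2-qG3-1029.1, -2.83 for 7-qD2-24830.1 and -2.73 for 6-qC3-6258.1. It was -2.51 for 8-qC5-2209.1, -2.47 for 10-qC1-12816.1 and -2.28 for 17-qA3.3-26735.1. In all 11 of these, both homozygous IP libraries lay below both heterozygous IP libraries, where 33.8% of all rows tested between the IPs did. The same IP values enter the difference by which these loci were called, so this is not a separate result.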

How the results depend on the processing

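Between the IPs, calls of sense loci stayed within 1.5 times of 54 lower and 12 higher in every setting run except the fit on all 8 libraries, with 14 lower and 1 higher; that fit shares 1 spread with the testis libraries. In the testis, 2 loci were called higher with the replicate block, against 0.733% of all rows. These were 4-qB3-3994.1 (edgeR adjusted p = 0.0378) and 1-qD-2017.1 (edgeR adjusted p = 0.0126). With a library left out, the median log2 difference of the loci in the testis lay between 0.046 and 0.84. For IP over testis in homozygotes, DESeq2 called 7 loci higher (5.45% of all rows). The count was 8 with no filter on low counts (3.95%), 10 with the replicate block (4.46%) and 1 with all 8 libraries (0.353%). Loci called lower were 17 in DESeq2 (5.14%), 32 with library totals only (6.7%) and 13 with no filter (4.2%). Loci called lower were 9 with the block (3.11%) and 0 with all 8 libraries (0.00705%). With a library left out they lay between 1 and 17 higher and between 0 and 45 lower. In heterozygotes, DESeq2 called 16 loci higher (1.92% of all rows), the replicate block 8 (0.944%) and the fit on all 8 libraries 1 (0.0212%). With a library left out, the median log2 ratio of the loci in heterozygotes lay between 0.71 and 0.97. The interaction had 23 loci lower (0.57% of all rows) and 1 higher (4.42%) in DESeq2, and 9 lower with library totals only (0.0635%). With a library left out, the median of the loci in the interaction lay between -1.61 and -0.77.

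Leaving out a library leaves its group a lone library, assumed to vary like the others. The testis difference of 17-qC-935.1 was 1.27 without heterozygous testis replicate 2, against -1.26 with all libraries, and ranged from -2.73 to 1.27, and the ratio of IP to testis of 3-qA2-617.1 in heterozygotes ranged from -1.73 to 0.62. Per 1000 TMM effective reads the sense sums were 22.2 in homozygous IP and 38.8 in heterozygous IP. Library totals moved the median of all rows by 0.49 in the testis, -0.27 between the IPs, -0.45 for IP over testis in homozygotes, 0.37 in heterozygotes and -0.85 in the interaction, while the sense median relative to it stayed at -0.83 between the IPs. The cause of these shifts was not tested.

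The deviations of same-numbered libraries correlated at 0.597 between homozygous and heterozygous testis, 0.05 between the IPs, -0.134 between homozygous IP and testis and 0.015 between heterozygous IP and testis. With the replicate block the IPs gave 66 lower and 15 higher, against 19.1% and 14.6% of all rows. A crossed block in homozygotes, chosen after seeing the data, gave 8 higher and 11 lower, against 7.17% and 6.23% of all rows. Depth limits the lowest loci most, where a library held as few as 3 reads.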
